A study of Callithrix jacchus with 20 samples.

Results

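Classical cadherins are transmembrane adhesion proteins that hold neighbouring cells together in the presence of calcium and bind catenins with their cytoplasmic tail. The type I members CDH1 (E-cadherin), CDH2 (N-cadherin), CDH3 (P-cadherin) and CDH4 (R-cadherin) and the type II members CDH5 (VE-cadherin), CDH6 (K-cadherin), CDH8, CDH10 and CDH11 (OB-cadherin) were followed here in marmoset induced pluripotent stem cells (cjiPSCs) and their progeny. Epithelial and pluripotent cells are known for E-cadherin, mesenchymal and neural cells for N-cadherin, and endothelial cells for VE-cadherin. These 9 genes of the 25102 in the count table were selected on measured values, because CDH1 was close to absent in every library of cells kept in cjPSCM, and the question was whether another classical cadherin had more RNA there. All 9 passed the filter on low counts, which left 15797 genes, and CDH1 did so through the libraries of TESR medium. RNA was measured, not protein or adhesion.

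The 20 poly(A) libraries came from 1 line, DPZ_cjiPSC2 in the sample labels and DPZ_cjiPSC#2 in the design text, with 2 biological replicates in each of 10 conditions, so the spread reported is that between cultures of 1 line. Undifferentiated cjiPSCs were kept in TESR medium or in cjPSCM, a medium derived from one for expanded potential stem cells. From both media, precursors of mesendoderm (pre-ME) were induced with the WNT pathway activator CHIR either with activin A (pre-ME + ActA) or without it (pre-ME − ActA). Pre-ME cells of cjPSCM origin were then aggregated into embryoid bodies, and at day 4 cells double-positive for surface markers (cjPGCLCs, primordial germ cell-like cells) and double-negative cells (somatic cells) were sorted. The labels name the sort markers differently (INTα6 with EpCAM, CXCR4 with EpCAM, or CXCR4 with INTα6), and the titles of sorted samples give the medium as cjEPSCM. Between 4784964 and 22067099 reads were counted on genes per library. Reads outside annotated genes made up 10.6% and 13.3% in cjiPSCs in TESR medium, and 19.3% to 20.6% in pre-ME cells from TESR medium. The sample numbers of these pre-ME libraries lie apart from those of all other libraries. A batch difference, if there was one, cannot be told apart from the step to pre-ME in TESR medium. The same holds for the difference between media in pre-ME cells. The 4 pluripotency markers examined (POU5F1, NANOG, SOX2 and LIN28A) had over 3 reads in every condition. All 3 candidate sort markers were called higher in cjPGCLCs than in somatic cells under both protocols. Cells were sorted on markers among these, so that result was largely fixed by the sort. Of 5 germ cell markers, 4 (SOX17, TFAP2C, NANOS3 and DPPA3) were also called higher under both protocols. Of all genes tested, 1.58% were called with ActA and 2.84% without, in both directions. Called means past both thresholds (0.05 for the adjusted p, 2 for the size of the log2 fold change), and passing the test means past the first alone. Levels below are read counts divided by the library's size factor (normalised counts), given as replicate 1 and replicate 2. Tests used the raw counts and compared conditions within a gene, without correction for gene length.

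CDH1 had 3 levels. cjiPSCs in TESR medium had 1710 and 2012 normalised counts. In pre-ME cells from TESR medium 38.3 and 39.8 were measured with ActA, and 34.0 and 42.6 without ActA. The 14 libraries of cjPSCM origin held between 0 and 8 reads of CDH1 each, together 44 reads, with 7.11 normalised counts at most. The highest library of cjPSCM origin and the lowest of TESR medium thus stood at 7.11 and 34.0. Both cjiPSC libraries in cjPSCM had 3 reads, and the ratio of CDH1 reads between TESR medium and cjPSCM, scaled to the total reads on genes, was 566 (95% interval from 260 to 1542, exact, counting error only). In pre-ME + ActA, where the cjPSCM libraries held 7 and 1 reads, this ratio was 9.90 (4.89 to 23.4), and the fitted log2 fold change of cjPSCM over TESR medium moved from -3.22 to -4.72 without pre-ME + ActA replicate 1 in cjPSCM, and in pre-ME − ActA it was 26.1 (9.999 to 97.1). These differences between media are what the set was chosen on, so no test is attached to them.

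The day 4 populations stayed at this low level. cjPGCLCs had 6.76 and 7.11 normalised counts of CDH1 with ActA (8 and 5 reads) and 3.04 and 6.30 without ActA (4 reads in both libraries). In somatic cells 1 and 4 reads were counted with ActA and 0 in both libraries without ActA. A count of 0 leaves room for up to 3 reads, so differences among the 14 libraries lie close to what the depth can show, and no fold change is given for them. CDH1 reached the test through the TESR libraries, and its test values among these 14 libraries are not given.

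**Figure D1:**
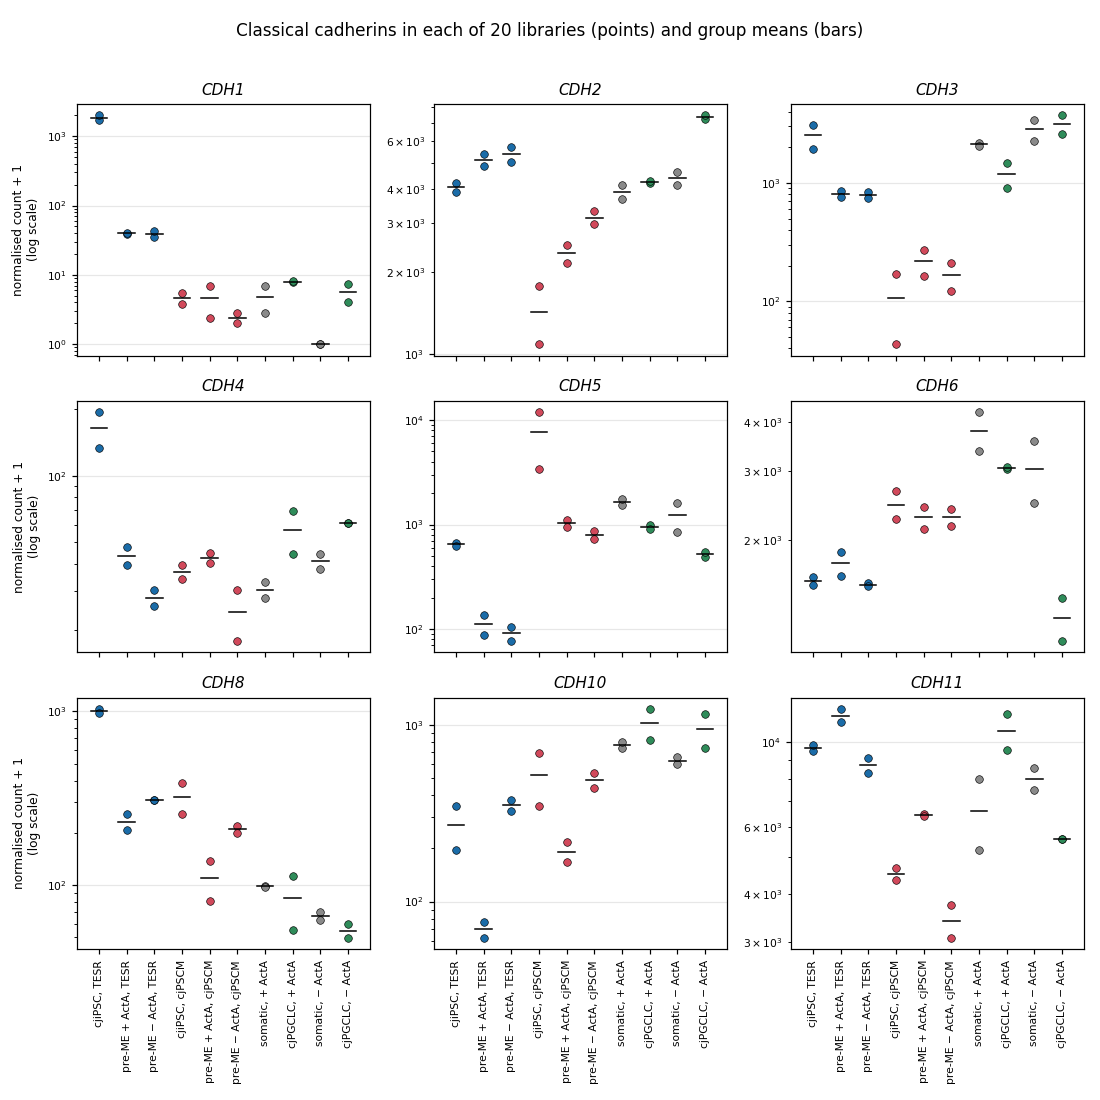
Normalised count + 1 (log axis, its range set for each gene) of the 9 classical cadherins in the 10 conditions; points are the 2 libraries of a condition, bars their mean, with TESR medium in blue, cjPSCM cjiPSCs and pre-ME in red, somatic cells in grey and cjPGCLCs in green. CDH1 is high in cjiPSCs in TESR medium and at 7.11 or less in all 14 libraries of cjPSCM origin. CDH2 and CDH3 have their highest means in cjPGCLCs without ActA, and CDH10 in cjPGCLCs with ActA. CDH3 overlaps somatic cells there, and with ActA its mean is lower in cjPGCLCs (1190) than in somatic cells (2113). CDH10 overlaps between cjPGCLCs with and without ActA.

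The other 8 members were next set side by side between the media, as a description. In cjiPSCs, 2 of the 9 members had both cjPSCM libraries above both TESR libraries (24.3% of all genes tested did so), 6 had both below (25.9% of all genes), and the libraries of 1 overlapped. The median log2 fold change, cjPSCM over TESR medium, was -1.33 over the 8 members without CDH1 and 0.00 over all genes tested.

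CDH5, the adhesion protein of endothelial junctions, was the member with the largest excess in cjPSCM. Its normalised counts in cjiPSCs were 671 and 619 from TESR medium, but 11857 and 3403 from cjPSCM. The log2 fold change was 3.55 ± 0.43 (SE), and it was 2.36 without cjPSCM replicate 1 and 4.2 without cjPSCM replicate 2, so its size depended on the library. CDH5 was also higher in pre-ME cells of cjPSCM origin. With ActA these had 1116 and 955 against 86.5 and 135 from TESR medium (log2 fold change 3.21 ± 0.44), and without ActA they had 876 and 729 against 76.3 and 105 (3.14 ± 0.44).

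Markers of endothelial cells were also higher in cjPSCM. The summed level of 9 other endothelial genes (PECAM1, TEK, KDR, CLDN5, ERG, TIE1, VWF, EMCN and ESAM) was 30205 and 16596 in cjiPSCs in cjPSCM, in the same order of replicates as CDH5, against 8981 and 7353 in TESR medium. All 9 had over 3 reads in the 4 cjiPSC libraries. In pre-ME cells the sum was 5434 to 9175 in the 4 libraries of cjPSCM origin, where 8 or 9 of the genes had over 3 reads, and 1447 to 2903 in the 4 of TESR origin. PECAM1, an adhesion molecule of endothelial and blood cells that pluripotent cells can also express, contributed 12989 and 7096 to the sum in cjiPSCs in cjPSCM and 1682 and 1565 in TESR medium. Without PECAM1 the sum of the other 8 was 17217 and 9500 in cjPSCM, and 7299 and 5788 in TESR medium. In pre-ME cells of cjPSCM origin this sum was 5439 and 5884 with ActA and 2313 and 2146 without. In those from TESR medium it was 1847 and 2215 with ActA and 763 and 825 without. The media thus stayed apart within each protocol, but their ranges over both protocols overlapped. From pre-ME + ActA to somatic cells CDH5 and the markers went apart. CDH5 had means of 1035 and 1649 (a change that did not pass), and the sums of the 9 markers were 8278 and 9175 against 6164 and 5804. On the other steps to day 4 the mean of CDH5 and the sums of the 9 markers moved the same way, and CDH5 did not pass there either. Pre-ME − ActA had a mean of 803 for CDH5 and sums of 5434 and 5649, and somatic cells without ActA had 1226 with 5888 and 6956. cjPGCLCs without ActA had 521 with 5037 and 4794, and those with ActA had 947 with 5410 and 5164. Without PECAM1 the sums of pre-ME − ActA (2313 and 2146) and of cjPGCLCs without ActA (2415 and 2197) overlapped. The CDH5 libraries overlapped between pre-ME cells and cjPGCLCs with ActA, and between pre-ME cells and somatic cells without ActA. The part of these markers in the CDH5 difference was not tested, and fewer cells of a type and less RNA per cell cannot be told apart in these bulk libraries.

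CDH6, known from kidney development, had a small excess in cjPSCM at all 3 stages. TESR medium gave 1604 and 1529 normalised counts in cjiPSCs, and cjPSCM gave 2661 and 2264 (log2 fold change 0.63 ± 0.17). The values were 0.38 ± 0.17 in pre-ME + ActA and 0.58 ± 0.17 in pre-ME − ActA, with every cjPSCM library above both TESR libraries of its stage. CDH10, a type II cadherin of the nervous system, overlapped in cjiPSCs, where TESR medium gave 345 and 195 normalised counts and cjPSCM gave 690 and 344. Its difference of 0.90 ± 0.31 there was 0.26 without cjPSCM replicate 1. In pre-ME cells CDH10 was higher from cjPSCM, by 1.44 ± 0.35 with ActA and 0.48 ± 0.30 without.

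CDH2, the N-cadherin that often replaces E-cadherin when epithelial cells become mesenchymal, and CDH3 were both lower in cjPSCM. For CDH2, 4220 and 3919 normalised counts in TESR medium stood against 1087 and 1773 in cjPSCM (log2 fold change -1.54 ± 0.17). For CDH3 these cells had 1953 and 3117 in TESR medium, but 42.4 and 170 in cjPSCM (-4.68 ± 0.47, with -3.92 and -5.89 when replicate 1 or replicate 2 in cjPSCM was left out). Both stayed lower in pre-ME cells of cjPSCM origin. CDH2 differed there by -1.15 ± 0.17 with ActA and -0.77 ± 0.17 without, and CDH3 by -1.89 ± 0.41 and -2.22 ± 0.42.

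The remaining members were also lower in cjiPSCs in cjPSCM. CDH4 had 133 and 194 normalised counts in TESR medium and 33.0 and 38.5 in cjPSCM (-2.20 ± 0.30), CDH8 had 1033 and 980 against 255 and 388 (-1.68 ± 0.25), and CDH11 had 9479 and 9826 against 4678 and 4342 (-1.12 ± 0.17). In pre-ME cells the libraries of the media overlapped for CDH4 under both protocols, while CDH8 and CDH11 stayed lower from cjPSCM. In pre-ME + ActA 3 of 9 members lay above (background 37.6% of all genes) and 5 below (38.5%). In pre-ME − ActA 3 lay above (30.7%) and 5 below (34.1%). Of the 8 members other than CDH1, CDH5 and CDH6 thus had more RNA in both cjPSCM libraries at each of the 3 stages and CDH10 had more in pre-ME cells.

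**Figure D2:**
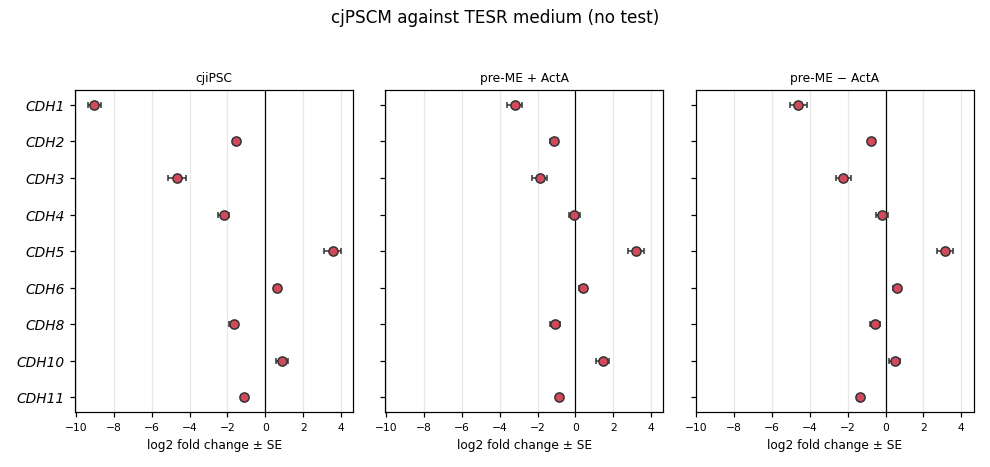
Log2 fold change, cjPSCM over TESR medium, of each classical cadherin in cjiPSCs, pre-ME + ActA and pre-ME − ActA; points are edgeR estimates from 2 against 2 libraries and bars are ± SE. CDH5 lies between 3.14 and 3.55 at the 3 stages, CDH2, CDH3 and CDH11 lie below 0 at each of them, and CDH1 is the lowest point in every panel and rests on 1 to 7 reads per cjPSCM library.

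The loss of E-cadherin RNA on entry into pre-ME, which could be tested within TESR medium, went with a fall of several other members. A batch difference, if there was one, cannot be told apart from this step. CDH1 fell by 5.56 on the log2 scale with ActA (± 0.24, adjusted p = 4.67e-10 by edgeR's quasi-likelihood test with Benjamini-Hochberg adjustment, used throughout) and its log2 fold change without ActA was -5.58 ± 0.24 (adjusted p = 4.15e-10). With ActA, 6 of 9 members passed the test, all lower (background 34.5% of genes tested, in both directions), and 4 of these were also beyond a log2 fold change of 2 (background 6.96%). Without ActA 5 of 9 passed, again all lower (36.6%), and 3 were beyond 2 (7.86%). CDH1, on which the set was chosen, is included in each of these counts of members. Over the 8 members without CDH1 the median was -1.77 with ActA and -0.90 without, against -0.02 and -0.03 over all genes tested.

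CDH5 had log2 fold changes of -2.53 ± 0.43 with ActA (adjusted p = 0.000317) and -2.82 ± 0.44 in the protocol lacking it (adjusted p = 0.000134). CDH8, found in neural tissue, went from 1033 and 980 normalised counts to 255 and 208 with ActA (log2 fold change -2.11 ± 0.25, adjusted p = 1.37e-05) and to 306 and 309 without (-1.70 ± 0.25, adjusted p = 8.19e-05). CDH4, which is known from retina and kidney, fell by 1.91 ± 0.28 with ActA and by 2.56 ± 0.29 without (adjusted p = 8.12e-05 and 6.28e-06). CDH3 fell from 1953 and 3117 to 850 and 767 with ActA (-1.63 ± 0.39, adjusted p = 0.00421) and to 832 and 750 without (-1.66 ± 0.39, adjusted p = 0.00341). These adjusted p-values stayed under 0.05 in each of 20 fits that left out 1 library.

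CDH2, CDH6 and CDH11 did not pass on this step. CDH2 had 4855 and 5385 normalised counts in pre-ME + ActA and 5042 and 5719 in pre-ME − ActA, above both cjiPSC libraries, but its log2 fold changes of 0.34 ± 0.17 and 0.41 ± 0.17 did not pass the test (adjusted p = 0.128 and 0.065). They passed when either cjiPSC library in cjPSCM was left out of the common model, with adjusted p = 0.0248 (without replicate 1) and 0.0261 (without replicate 2) with ActA, and 0.00803 and 0.0086 without ActA. CDH6 changed by 0.16 ± 0.17 and -0.02 ± 0.17, and CDH11, the mesenchymal and osteoblast cadherin, by 0.29 ± 0.17 and -0.14 ± 0.17, none of which passed.

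CDH10 had the largest difference between pre-ME with and without ActA in TESR medium. Pre-ME + ActA from TESR medium had 61.3 and 75.9 normalised counts, against 324 and 376 without ActA and 345 and 195 in the cjiPSCs. The fall against cjiPSCs was 2.00 ± 0.34 on the log2 scale (adjusted p = 0.000295), while without ActA the change was 0.35 ± 0.31 (adjusted p = 0.4). Pre-ME + ActA against pre-ME − ActA gave -2.35 ± 0.33 (adjusted p = 0.000182), and CDH10 was the 1 member of 9 that passed in this comparison by either rule, against a background of 8.84% of genes at the adjusted p alone and 2% with a log2 fold change beyond 2. CDH1, CDH2, CDH3, CDH4, CDH5, CDH6, CDH8 and CDH11 had log2 fold changes between -0.41 (CDH8) and 0.65 (CDH4), with adjusted p of 0.148 (CDH11) or more. CDH18, a related type II cadherin outside the set, was called in the same direction, with 25.2 and 34.5 against 132 and 171 normalised counts (-2.34 ± 0.38, adjusted p = 0.000564).

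In pre-ME cells of cjPSCM origin the ActA contrast gave 3 of 9 members past the test (background 20.9%) and none beyond a log2 fold change of 2 (background 2.11%). CDH10 was again lower with ActA, with 166 and 215 normalised counts against 439 and 535 (-1.38 ± 0.32, adjusted p = 0.00791). Without pre-ME + ActA replicate 1 the value was -1.20 (adjusted p = 0.119), and without pre-ME − ActA replicate 2 it was -1.25 (adjusted p = 0.068). CDH11 was higher with ActA, with 6470 and 6415 against 3734 and 3070 (0.90 ± 0.17, adjusted p = 0.00219), in each of the 20 fits without 1 library. CDH8 was lower, with 137 and 80.1 against 219 and 197 (-0.93 ± 0.27, adjusted p = 0.0238), which did not pass without pre-ME + ActA replicate 2 (-0.62, adjusted p = 0.193), without pre-ME − ActA replicate 1 (-0.87, adjusted p = 0.0935) and without pre-ME − ActA replicate 2 (-1.02, adjusted p = 0.0767). CDH2 was at -0.45 ± 0.17 (adjusted p = 0.0659, and 0.00873 or 0.00922 when cjiPSC replicate 1 or 2 in cjPSCM was left out). CDH18 was called lower with ActA here too (-2.16 ± 0.52, adjusted p = 0.00908).

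From cjiPSCs in cjPSCM to pre-ME the pattern differed in its members, though the difference between media was not tested. With ActA 5 of 9 members passed (background 17.7%), 2 higher and 3 lower, and 1 of them was beyond a log2 fold change of 2 (background 3.06%). Without ActA 2 of 9 passed (38%), 1 in each direction, and 1 was beyond 2 (5.27%). Over the 8 members without CDH1 the median was 0.07 with ActA and -0.22 without, against 0.00 and 0.03 over all genes tested.

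CDH2 rose on this step. It had 1087 and 1773 normalised counts in the cjiPSCs, 2502 and 2157 in pre-ME + ActA (0.73 ± 0.17, adjusted p = 0.00754) and 3325 and 2977 in pre-ME − ActA (1.18 ± 0.17, adjusted p = 8.59e-05). With ActA it did not pass without cjiPSC replicate 1 (0.43, adjusted p = 0.0897) and without pre-ME + ActA replicate 1 (0.61, adjusted p = 0.0996). Without ActA it was kept in all 20 fits that left out 1 library.

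CDH5 fell from its high level in cjPSCM. The log2 fold change was -2.87 ± 0.41 (adjusted p = 0.000165) in pre-ME + ActA and -3.22 ± 0.42 (adjusted p = 3.08e-05) in pre-ME − ActA. Leaving out cjiPSC replicate 1 gave -1.68 and -2.03, and leaving out replicate 2 gave -3.52 and -3.87, all still past the test. All 9 endothelial markers passed as lower with ActA and all 9 without it (background 17.7% and 38% of all genes, in both directions). Of these, 3 (CLDN5, EMCN and VWF) and 6 (CLDN5, ERG, ESAM, KDR, TIE1 and VWF) were called beyond 2 (background 3.06% and 5.27%). Both comparisons rest on the 2 cjiPSC libraries in cjPSCM, whose summed levels of these markers differed (30205 and 16596).

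With ActA, CDH8 fell by 1.51 ± 0.27 (adjusted p = 0.00114) and CDH10 by 1.45 ± 0.33 (adjusted p = 0.0055), and CDH11 rose by 0.53 ± 0.17 (adjusted p = 0.0417). The CDH10 value was -0.84 without cjiPSC replicate 1 (adjusted p = 0.142) and -1.27 without pre-ME + ActA replicate 1 (adjusted p = 0.0907). The CDH11 result was lost in 12 of 20 fits without 1 library, with adjusted p up to 0.183 without pre-ME + ActA replicate 1: those without a library of cjiPSCs or pre-ME + ActA in cjPSCM, of somatic cells or cjPGCLCs without ActA, or of pre-ME from TESR medium. CDH3 had 270 and 163 normalised counts with ActA and 211 and 122 without, against 42.4 and 170. Its changes of 1.15 ± 0.47 and 0.79 ± 0.47 did not pass (adjusted p = 0.0999 and 0.19), but did without cjiPSC replicate 2 (2.37, adjusted p = 0.00144, and 2.01, adjusted p = 0.00359). Without ActA, CDH8 was at -0.58 ± 0.26 (adjusted p = 0.0859), with 0.0293 when cjiPSC replicate 1 and 0.0495 when cjPGCLC + ActA replicate 1 was left out. The change of CDH3 from cjiPSCs to pre-ME + ActA was 2.78 ± 0.61 higher in cjPSCM than in TESR medium on the log2 scale (2.03 and 4.00 without cjiPSC replicate 1 and 2 in cjPSCM), and for pre-ME − ActA the same difference was 2.45 ± 0.60, with 1.70 and 3.67 in the same fits, all as descriptions.

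**Figure D3:**
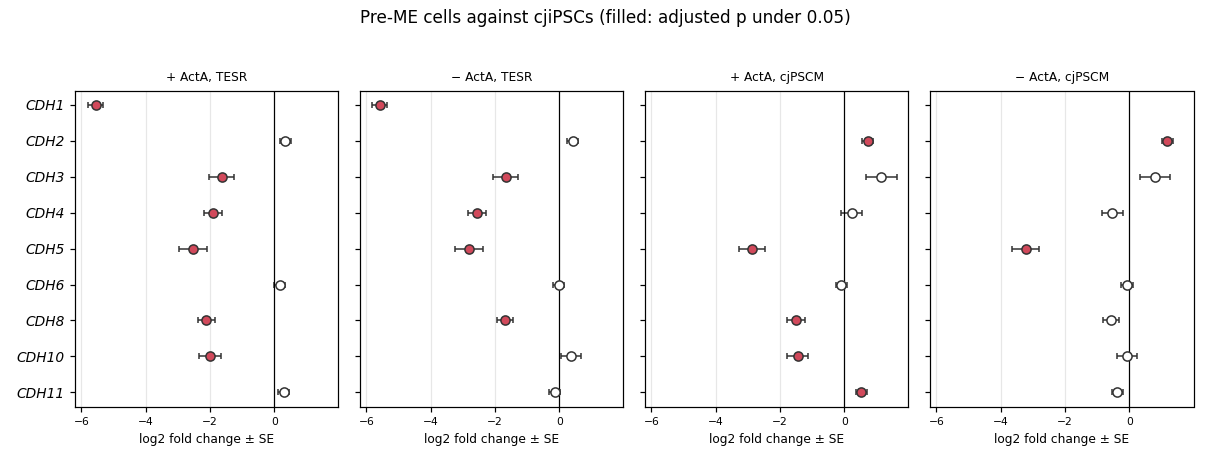
Log2 fold change of each classical cadherin in pre-ME cells over the cjiPSCs of the same medium, with and without ActA; points are edgeR estimates from 2 against 2 libraries, bars are ± SE, and red points passed an adjusted p of 0.05. CDH5 is low in all 4 panels (from -2.53 to -3.22), and CDH2 passes in both panels of cjPSCM; CDH1 is left out there because its libraries held 1 to 7 reads.

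On the way from pre-ME to day 4, CDH3, the P-cadherin of basal epithelia and placenta, showed the largest rise of the set. Somatic cells had 2169 and 2057 normalised counts with ActA and 3434 and 2248 without, cjPGCLCs had 908 and 1473 with ActA and 3736 and 2580 without, and the pre-ME cells of the same origin had 122 to 270. All 4 comparisons were called. The log2 fold changes over pre-ME were 3.26 ± 0.43 in somatic cells with ActA (adjusted p = 1.45e-05), 4.04 ± 0.44 in somatic cells without ActA (adjusted p = 2.4e-06), 2.44 ± 0.42 in cjPGCLCs with ActA (adjusted p = 0.000185) and 4.21 ± 0.44 in cjPGCLCs without ActA (adjusted p = 1.83e-06). At day 4 the mean of CDH3 without ActA was 3158 in cjPGCLCs and 2841 in somatic cells, and both overlapped the 1953 and 3117 of cjiPSCs in TESR medium.

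In somatic cells 4 of 9 members passed against pre-ME + ActA, all higher (background 48%), and 2 were beyond 2 (background 8.3%). Against pre-ME − ActA 4 of 9 passed, 3 higher and 1 lower (42.2%), and 1 was beyond 2 (7.94%). In cjPGCLCs 4 of 9 passed against pre-ME + ActA, all higher (48.4%), with 2 beyond 2 (8.36%), and 7 of 9 against pre-ME − ActA, 5 higher and 2 lower (40%), with 1 beyond 2 (7.88%). The medians over the 8 members without CDH1 lay between 0.52 and 0.82 in these 4 comparisons and those of all genes between 0.00 and 0.04.

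CDH2 was higher at day 4 under both protocols. cjPGCLCs had 4211 and 4287 normalised counts with ActA, against 2502 and 2157 in their pre-ME (0.87 ± 0.17, adjusted p = 0.000547), and 7189 and 7445 without ActA, against 3325 and 2977 (1.20 ± 0.17, adjusted p = 3.92e-05). Somatic cells with ActA had 4142 and 3673 (0.74 ± 0.17, adjusted p = 0.00198). Those without ActA had 4610 and 4157 (0.45 ± 0.17, adjusted p = 0.0436), a result that was lost in all 16 fits without 1 of the pre-ME or day 4 libraries, with adjusted p up to 0.235 without pre-ME − ActA replicate 2. The 2 libraries of cjPGCLCs without ActA were the highest in CDH2 of all 20.

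CDH10 rose from the low level of pre-ME + ActA to 737 and 793 normalised counts in somatic cells (2.01 ± 0.33, adjusted p = 0.000111) and to 816 and 1226 in cjPGCLCs (2.43 ± 0.33, adjusted p = 1.85e-05). Starting from pre-ME − ActA, it reached 739 and 1144 in cjPGCLCs (0.93 ± 0.30, adjusted p = 0.0222) and 600 and 651 in somatic cells (0.34 ± 0.31, adjusted p = 0.408). The result in cjPGCLCs without ActA was lost without pre-ME − ActA replicate 1 (0.77, adjusted p = 0.149) or 2 (1.06, adjusted p = 0.0623) and without cjPGCLC replicate 2 (0.57, adjusted p = 0.252). With ActA, both libraries of each day 4 population stood above both pre-ME libraries.

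CDH11 rose in cjPGCLCs with ActA to 11869 and 9535 normalised counts (0.74 ± 0.17, adjusted p = 0.00214) and in cjPGCLCs without ActA to 5562 and 5579 (0.70 ± 0.17, adjusted p = 0.00397, but 0.54 with adjusted p = 0.0689 without pre-ME − ActA replicate 2). In somatic cells it rose without ActA, to 8558 and 7468 (1.21 ± 0.17, adjusted p = 3.95e-05), and stood at 7996 and 5200 with ActA (0.03 ± 0.17, adjusted p = 0.911). CDH6 rose in somatic cells with ActA to 3373 and 4252 (0.74 ± 0.17, adjusted p = 0.00241) and fell in cjPGCLCs without ActA to 1100 and 1417 (-0.88 ± 0.18, adjusted p = 0.000844), the lowest mean of CDH6 among the 10 conditions. Its change was 0.43 ± 0.17 in cjPGCLCs with ActA (adjusted p = 0.0527) and 0.38 ± 0.17 in somatic cells without ActA (adjusted p = 0.0903, and 0.0217 with 0.61 when somatic replicate 1 was left out). For cjPGCLCs with ActA it passed in 5 of 20 fits without 1 library (without either cjiPSC library in cjPSCM, either somatic − ActA library or cjPGCLC − ActA replicate 1, adjusted p from 0.0359 to 0.0493) and with DESeq2 (0.42, adjusted p = 0.0456).

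CDH8 fell further without ActA, by 2.00 ± 0.30 in cjPGCLCs (adjusted p = 5.83e-05) and by 1.71 ± 0.31 in somatic cells (adjusted p = 0.00033). With ActA its changes were -0.37 ± 0.29 (adjusted p = 0.308) and -0.20 ± 0.30 (adjusted p = 0.612), and the first was -1.04 (adjusted p = 0.028) without cjPGCLC replicate 1. CDH4 rose in cjPGCLCs without ActA, from 29.5 and 16.8 to 60.0 and 59.9 (1.32 ± 0.31, adjusted p = 0.00292), with 0.99 (adjusted p = 0.0502) without pre-ME − ActA replicate 2. In somatic cells without ActA CDH4 was at 0.73 ± 0.34 (adjusted p = 0.0957), and at 1.21 (adjusted p = 0.0359) without pre-ME − ActA replicate 1. CDH5 passed in none of these 4 comparisons, with values from -0.64 ± 0.40 to 0.66 ± 0.39. It passed in 3 of the 4, the exception being cjPGCLCs with ActA, when either cjiPSC library in cjPSCM was left out (adjusted p from 0.0208 to 0.0463).

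**Figure D4:**
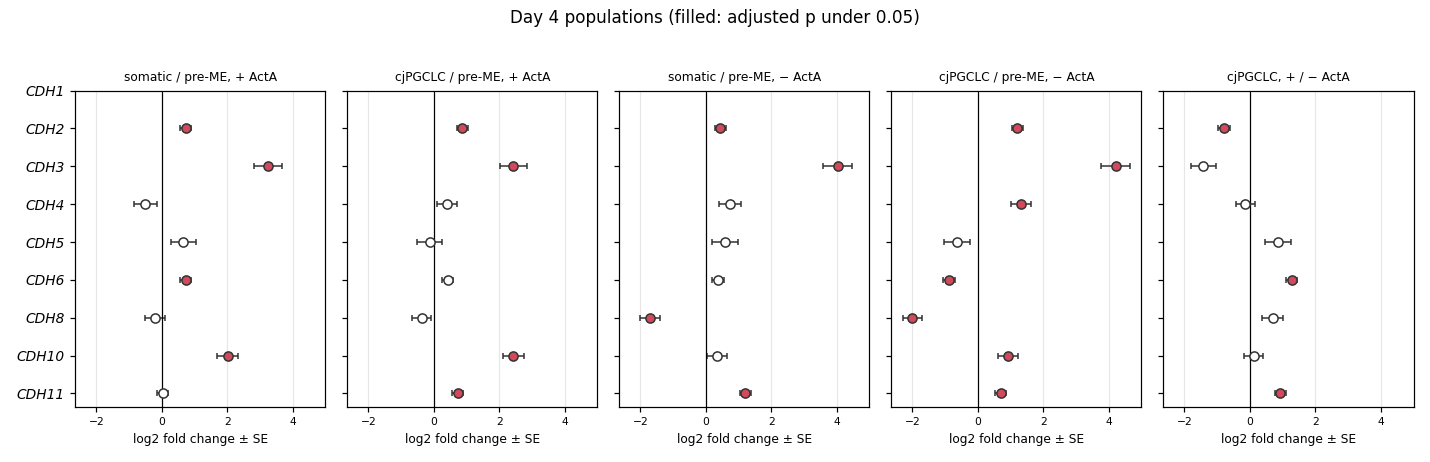
Log2 fold change of the classical cadherins in somatic cells and cjPGCLCs over their pre-ME cells, with and without ActA, and in cjPGCLCs with over without ActA; points are edgeR estimates from 2 against 2 libraries, bars are ± SE, and red points passed an adjusted p of 0.05. CDH3 lies between 2.44 and 4.21 in the first 4 panels; CDH1 is left out because its libraries held 0 to 8 reads.

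Between cjPGCLCs and somatic cells sorted at day 4 few members passed. With ActA 1 of 9 passed (background 4.84%), and none was beyond a log2 fold change of 2 (background 1.58%). This was CDH11 (0.71 ± 0.17, adjusted p = 0.0225), which did not pass without somatic replicate 2 (0.43, adjusted p = 0.383) and without cjPGCLC replicate 1 (0.54, adjusted p = 0.331). CDH5 was at -0.79 ± 0.40 (adjusted p = 0.36, and 0.0365 or 0.0375 without cjiPSC replicate 1 or 2 in cjPSCM).

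Without ActA 2 of 9 passed (background 9.63%) and none beyond 2 (background 2.84%). CDH6 was lower in cjPGCLCs, with 1100 and 1417 against 2486 and 3580 normalised counts (-1.26 ± 0.18, adjusted p = 0.00017), in all 20 fits without 1 library. CDH2 was higher (0.76 ± 0.17, adjusted p = 0.00791), but not past the test without somatic replicate 2 (0.68, adjusted p = 0.113) or cjPGCLC replicate 2 (0.72, adjusted p = 0.0575). CDH5 was at -1.23 ± 0.41 (adjusted p = 0.0712) and passed with adjusted p = 0.00149 when either cjiPSC library in cjPSCM was left out. CDH11 was at -0.51 ± 0.17 (adjusted p = 0.078). DESeq2 gave adjusted p = 0.035, and edgeR with the replicate number as a block gave 0.0400. It also passed in 4 of 20 fits without 1 library, those without cjiPSC replicate 1 or 2 in cjPSCM (adjusted p = 0.0452 and 0.0451) or somatic + ActA replicate 1 or 2 (0.0383 and 0.0327).

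CDH11 thus stood above the somatic cells in both cjPGCLC libraries with ActA and below them in both without. The difference between these sorting effects was 1.22 ± 0.24 on the log2 scale and had adjusted p = 0.0689, so it did not pass. With the replicate number as a block in the edgeR model, it passed (1.22, adjusted p = 0.0243). Without that block none of the 9 members passed this test of the difference with edgeR (background 0.0633% of genes), and 3 had an unadjusted p under 0.05. With DESeq2 2 passed, CDH11 (adjusted p = 0.000842) and CDH6 (0.96, adjusted p = 0.032). With edgeR, CDH11 passed without cjiPSC replicate 1 or 2 in cjPSCM (adjusted p = 0.0246 and 0.0233) and without somatic + ActA replicate 1 (1.55, adjusted p = 0.0305).

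cjPGCLCs with and without ActA were compared directly. Of 9 members 3 passed (background 2.53%) and none was beyond 2 (background 0.38%). CDH6 was higher with ActA, at 3045 and 3068 against 1100 and 1417 normalised counts (1.28 ± 0.18, adjusted p = 0.00114), in all 20 fits without 1 library. CDH11 was higher (0.94 ± 0.17, adjusted p = 0.00764) and CDH2 lower (-0.79 ± 0.17, adjusted p = 0.0191). For CDH11 the result was lost without cjPGCLC + ActA replicate 1 (0.77, adjusted p = 0.123), cjPGCLC − ActA replicate 1 (0.94, adjusted p = 0.0845) or cjPGCLC − ActA replicate 2 (0.95, adjusted p = 0.0727). For CDH2 it was lost without any of the 4 libraries compared, namely cjPGCLC + ActA replicate 1 (-0.77, adjusted p = 0.175) or 2 (-0.80, adjusted p = 0.104) and cjPGCLC − ActA replicate 1 (-0.81, adjusted p = 0.119) or 2 (-0.76, adjusted p = 0.122). CDH3 was at -1.42 ± 0.39 (adjusted p = 0.0638) and CDH5 at 0.86 ± 0.40 (adjusted p = 0.364). Without cjiPSC replicate 1 or 2 in cjPSCM, CDH3 had adjusted p = 0.00555 and 0.00517, and CDH5 0.0337 and 0.0341.

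In somatic cells with against without ActA none of the 9 members passed with edgeR or DESeq2, and 1 had an unadjusted p under 0.05 (edgeR). The background was 0.0253% of genes at the adjusted p and 0.00633% with a log2 fold change beyond 2. The values of CDH2, CDH3, CDH4, CDH5, CDH6, CDH8, CDH10 and CDH11 lay between -0.46 (CDH4) and 0.58 (CDH8).

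Cadherins outside the set were examined next. Of 14 further cadherin genes listed, 11 could be tested. CDH9 and CDH19, both type II cadherins, had more RNA in cjPGCLCs than in somatic cells under both protocols. CDH9 was called under both. CDH9 had 202 and 158 normalised counts in cjPGCLCs with ActA and 165 and 170 without, against 21.2 and 11.9 or 4.61 and 10.8 in somatic cells, and at most 25.8 in any other library. Its log2 fold change was 3.47 ± 0.40 with ActA (adjusted p = 6.98e-05), and under the protocol lacking ActA it was 4.35 ± 0.45 (adjusted p = 9.65e-06). CDH19, known from Schwann cell precursors, had 90.4 and 66.8 in cjPGCLCs with ActA and 57.0 and 48.9 without, and 7.74 at most elsewhere. Somatic cells held 2 reads of CDH19 with ActA and 6 without. The ratio of reads, scaled to the total on genes, was 50.9 with ActA (95% interval from 13.8 to 424, exact, counting error only) and 9.99 without (4.44 to 27.8). CDH19 reached the test through the cjPGCLC libraries alone, and its test values are not given. CDH12 followed CDH1 in being highest in cjiPSCs in TESR medium, with 190 and 147 normalised counts there and 15.1 at most in all other libraries. In the step from cjiPSCs to pre-ME in TESR medium, CDH12 was called lower under both protocols. CDH22 had 23 and 8 reads in these cjiPSCs and at most 2 in a pre-ME library. CDH15 (M-cadherin of muscle) had 2 and 0 reads in the cjiPSCs and 10 to 19 in the pre-ME libraries. CDH15 and CDH22 reached the test through the libraries where they were high, so their test values are not given. In cjPSCM, CDH9 was called higher on both steps to pre-ME, and CDH18 on the step without ActA. On that step CDH15 went from 2 and 0 reads to 14 and 12, and CDH22 from 5 and 10 reads to 0 and 1. CDH15 had 1 read in each day 4 library without ActA. CDH20 was called lower in cjPGCLCs than in pre-ME + ActA. CDH13 (T-cadherin) had condition means of 180 to 1135 normalised counts and CDH24 of 265 to 939.

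**Figure D5:**
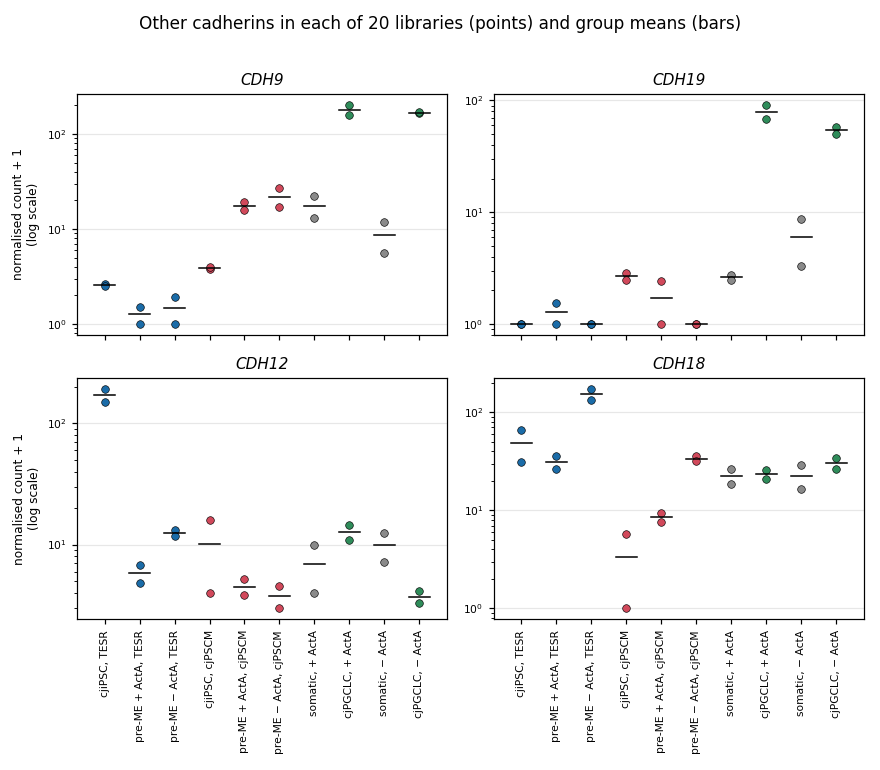
Normalised count + 1 (log axis, its range set for each gene) of CDH9, CDH19, CDH12 and CDH18 in the 10 conditions; points are the 2 libraries of a condition, bars their mean, coloured as in the plot of the classical cadherins. CDH9 and CDH19 are highest in the 4 cjPGCLC libraries (158 to 202 and 48.9 to 90.4), CDH12 in cjiPSCs in TESR medium.

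Catenins link cadherins to the actin cytoskeleton, and of 18 catenin and junction genes listed 17 were tested. CTNNB1 (β-catenin) ranged between condition means of 6973 and 9973. JUP (plakoglobin), a catenin shared with desmosomes, fell on entry into pre-ME in all 4 comparisons (by 1.26 to 1.80 on the log2 scale, adjusted p from 1.35e-05 to 0.000411). CTNNA3, an α-catenin, was called higher at day 4 than in pre-ME in both populations and protocols, from a mean of 2 or 3 normalised counts to 37 at most. CTNNA2 was called higher at day 4 than in pre-ME + ActA in both populations, and in somatic cells without ActA LIMA1 was called higher and CTNND2 lower. In the pre-ME comparisons with cjiPSCs no junction gene was beyond 2.

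Repressors of CDH1 transcription were followed as a list of 12, of which 9 were tested. PRRX1, SNAI2 and TWIST1 were called higher than in pre-ME in both day 4 populations under both protocols. Means of TWIST1 went from 72 and 35 normalised counts in pre-ME with and without ActA to 2370 and 1802 in cjPGCLCs and 2918 and 3488 in somatic cells. Between cjPGCLCs and somatic cells 0 of 9 passed with ActA (4.84% of all genes did) and 5 without (9.63%), all lower in cjPGCLCs, and the difference between the protocols was not tested for the list. FOXC2, a factor of mesoderm, was called lower in pre-ME than in cjiPSCs in all 4 comparisons and higher with ActA in pre-ME of cjPSCM origin, and in the latter cells without ActA it had no reads in either library. In cjiPSCs, where CDH1 differed most between the media, the summed level of the list was 5688 to 7409 in TESR medium and 6081 to 6890 in cjPSCM. The means of SNAI1, SNAI2 and TWIST1 were 140, 205 and 20 normalised counts for TESR medium against 83, 141 and 26 for cjPSCM. These genes make up a small part of the sum, and the other repressors are not given by medium here. A difference of the repressors between the media was not tested.

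Of 17 other epithelial genes listed, 12 were tested. CLDN7, CRB3, EPCAM, ESRP1, MARVELD3 and OVOL2 were called higher in cjPGCLCs than in somatic cells under both protocols, with no gene of the list lower. The background was 1.58% of genes tested with ActA and 2.84% without, in both directions. The summed level of the list overlapped, at 4917 to 6544 in cjPGCLCs against 4827 to 5710 in somatic cells with ActA. Without ActA it was 6473 to 10660 against 4490 to 6651. EPCAM is 1 of the sort markers in the labels and so was partly selected. ESRP1, a splicing regulator of epithelial cells, had a mean of 88 normalised counts in cjPGCLCs with ActA and 263 without, against 2 and 3 in somatic cells, and OVOL2, a factor that maintains epithelial state, had 26 and 65 against 1 and 1. Of 12 mesenchymal genes (VIM, FN1 and collagens among them) all had over 3 reads in every library, and their summed level was 132868 to 192711 in cjiPSCs in cjPSCM against 68200 to 99783 in TESR medium. COL1A1 was called lower in cjPGCLCs than in somatic cells without ActA. Of 4 neural genes found (MAP2 among them) the summed level was 182 to 351 at day 4 against 590 to 2038 before.

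CDH3 is the nearest protein-coding gene on one side of CDH1 in the order of genes of the RefSeq assembly calJac240_pri, which is not the build of the counts. The pseudogene LOC108589310 and LOC118149832, a small nuclear RNA, lie between them, and TANGO6, LOC103789478 and LOC118149791 are the nearest genes on the other side. Of 10 genes on each side of CDH1, 7 had an entry in the count table under the same name. Of the 3 nearest on each side, these were CDH3 and the pseudogene LOC103789478, which had 269 to 368 normalised counts in the 6 TESR libraries and 217 to 483 in the 14 of cjPSCM origin. Further out, ZFP90 had 341 to 632 in the TESR libraries and 163 to 636 in those of cjPSCM origin, UTP4 had 1266 to 2058 and 732 to 1618, and SNTB2 had 109 to 141 and 94.1 to 192. LOC103789475 had 25.3 to 65.5 and 1.88 to 64.1, and CHTF8 had 0 to 1.49 and 0 to 2.31. The ranges of these neighbours overlapped between the origins. Those of CDH1 (34.0 to 2012 and 0 to 7.11) did not, but the set was chosen on that gap. Whether the region as a whole differed between the origins was not tested. CDH3 overlapped as well (750 to 3117 and 42.4 to 3736), with its low values in cjiPSCs and pre-ME and its high values at day 4.

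The genes most like each member over the 20 libraries were found by Pearson's r of log2(normalised count + 1) among 12498 genes, as a description over libraries that share conditions. For CDH1 they included GJB2 (r = 0.966) and PCSK6 (0.956), and for CDH3 they were IGDCC4 (0.977), EPB41L4B (0.948) and HUNK (0.948). CDH5 was nearest to MMRN2 (0.982), CD34 (0.975) and PRKCH (0.974), of which MMRN2 and CD34 are known from endothelial cells. CDH2 had SLC35G1 (0.923), ATG14 (0.921) and NAB1 (0.916), CDH8 had ELOVL6 (0.949), TF (0.915) and ACAT2 (0.913), and CDH10 had ZFYVE1 (0.912), NEDD4 (0.902) and FAM214A (0.902). The nearest genes were less close for CDH4 (SHISA2, SLK and PTGFRN, r from 0.843 to 0.857), CDH11 (MFSD2A, TEAD3 and NEURL1B, 0.805 to 0.835) and CDH6 (CERCAM, PDE6A and ALDOC, 0.76 to 0.791). No member was among the 3 nearest of another.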

How the data were processed

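Poly(A) RNA of 20 libraries from 10 conditions was sequenced by the authors. According to the submitters' processing notes and the study's methods, reads were checked with FastQC 0.11.8, mapped with STAR 2.7.0a to calJac4 and counted with HTSeq 0.11. The authors deposited the raw read count of each gene, and a normalised signal in which the count is divided by a DESeq2 size factor. The labels name a directional library kit and the study's methods name the kit without that word, and the strand setting of the counting is not given in the sources used here, so overlapping or antisense genes can share reads. Reads outside annotated genes (10.6% to 23.2%) were left out of totals and tests.

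A quasi-likelihood F-test of edgeR 4.0.16 (R 4.3.3), with TMM factors and filterByExpr by condition, was applied to the raw counts in 1 model over all 20 libraries (10 residual degrees of freedom, 15797 genes, common dispersion 0.0203), and Benjamini-Hochberg adjustment ran over all genes. A gene passed at an adjusted p under 0.05 and was called if its log2 fold change was also beyond 2. There were 14 comparisons and 1 difference of comparisons. The SE is the log2 fold change divided by the root of F. The 3 comparisons of media, and the 3 differences of steps or ActA effects between media, use the contrast the genes were chosen on and are given without a p. Floors are 3 reads, and exact intervals (95%) cover counting error only. On simulated counts with 200 genes changed, edgeR recovered all 200 in the comparison of ActA in TESR medium.

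The genes, lists and tests were chosen with earlier results of these data known. The rule for named genes was all 9 members in every comparison, those of each list that were called and its highest in level, the 3 genes nearest to CDH1 on each side, and the 3 genes most like each member (1 of those for CDH1 is not reported here). CDH1 among cells of cjPSCM origin is given by its reads alone, only part of the lists' called genes is named, and genes were not ranked by level; further neighbours of CDH1, SNAI1 in cjiPSCs and JUP were chosen after their values were seen. Lists held other cadherins, junction genes, repressors of CDH1 and markers of 6 kinds of cell and of the sort. Alternatives were DESeq2 1.42.0, its size factors in edgeR, no filter, the replicate number as a block, each library left out in turn, and for likeness Spearman's rho and a pseudocount of 10. Transcript lengths were not used here, so levels are not compared between genes, and no sequences are shown.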

Additional observations from a re-analysis of the deposited data

Results flagged for a closer look

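CDH4 differed between the media in its change from cjiPSCs to pre-ME + ActA. In TESR medium both pre-ME libraries (38.3 and 46.7 normalised counts) lay below both cjiPSC libraries (133 and 194), whereas in cjPSCM both pre-ME libraries (39.2 and 43.5) lay above both cjiPSC libraries (33.0 and 38.5). The difference of the log2 fold changes, cjPSCM minus TESR medium, was 2.14 ± 0.42. It was not tested, because the set was chosen on a difference between the media, and the change within cjPSCM (0.23 ± 0.32, adjusted p = 0.661) did not pass by itself. No condition had 4 or more libraries, so none was examined for a library far from the others.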

How the results depend on the processing

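Under 4 alternatives, 0 of 135 tested values of the 9 members changed direction while called. Size factors of DESeq2 in edgeR kept all 135 on their side of the threshold and shifted the median of all genes by less than 0.03. Without the filter 115 stayed, 19 came to pass and 1 no longer passed. DESeq2 itself kept 131 with 4 more passing. CDH2 in somatic cells over pre-ME − ActA was lost without the filter (adjusted p = 0.0553). Of 47 member results that passed, 34 did so in all 20 fits without 1 library.

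Genes called between somatic cells with and without ActA were 1 with edgeR, 10 without the filter and 3 with DESeq2, and those for the difference of sorting effects by ActA were 10, 269 and 93. With the replicate number as a block the latter count was 25, 131 member values stayed, 3 came to pass (CDH11 between cjPGCLCs and somatic cells without ActA, CDH11 for the difference of sorting effects, and CDH6 in cjPGCLCs over pre-ME + ActA) and 1 was lost (CDH2 in somatic cells over pre-ME − ActA, adjusted p = 0.0512). Same-numbered replicates correlated between -0.205 and 0.256, and with 2 pairs the numbers were not taken as a pairing. A crossed block, chosen after seeing the data, gave 475 and 817 calls for the steps to pre-ME + ActA and pre-ME − ActA in cjPSCM, and 1255 for somatic cells over pre-ME − ActA, against 483, 832 and 1255 without a block. The cause of these changes was not tested.

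Leaving out 1 library at a time moved the genes called as follows. The ActA comparison ranged from 208 to 359 (316 with all libraries) in TESR medium and from 182 to 379 (334) in cjPSCM. The step to pre-ME in cjPSCM ranged from 282 (without cjiPSC replicate 1) to 1351 (without replicate 2) with ActA (483) and from 456 to 1884, by the same libraries, without ActA (832). cjPGCLCs against somatic cells with ActA ranged from 109 to 299 (249), cjPGCLCs with against without ActA from 28 to 81 (60), somatic cells with against without ActA from 0 to 4 (1), and the difference of sorting effects from 1 to 100 (10). The difference between media in the ActA effect on CDH1, which rests on 4 and 8 reads in cjPSCM, ranged from -0.11 to 1.88 and so changed sign.

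With 2 libraries per condition and 0 to 8 reads of CDH1 per library of cjPSCM origin, differences of CDH1 among those libraries were at the limit of the depth. Levels summed per coding length were not run, and gene counts between the media were not used.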
